A study of Arabidopsis thaliana with 8 samples.

Results

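TUB1 (locus AT1G75780) and TUB6 (AT5G12250) encode 2 of the beta-tubulins of Arabidopsis thaliana. Each was read by 1 probe set, a group of short array probes summarised as 1 value, that the array annotation assigns to that gene alone (262978_at for TUB1, 250317_at for TUB6). They are 2 of 13350 genes that 13513 probe sets name alone. The genes were chosen by their log2 signal differences between a gibberellin-deficient mutant and the Ler wild type, where both had been called higher in the mutant, so the values of that comparison are given as a description, without a test.

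Total RNA of whole, untreated 7-day-old seedlings was hybridised to 8 arrays, 2 in each of 4 groups. The groups were the wild type Ws (Wassilewskija), the wild type Ler (Ler-0), a de-etiolated mutant on a Col background, and a mutant on a Ler background that is gibberellin deficient through an allele described as leaky. De-etiolated mutants develop in darkness as if in light, and gibberellins are plant hormones of stem elongation, among other roles. Neither mutated gene is named in the labels, and Col wild type is not among the groups, so the de-etiolated mutation and its accession cannot be told apart. A leaky allele leaves some gene function, and whole seedlings mix root, hypocotyl and leaf, so fewer cells of a type and less RNA per cell cannot be told apart either.

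Alpha- and beta-tubulin pair into the dimers from which microtubules are built. In plants, microtubules under the plasma membrane guide the deposition of cellulose and so the direction in which a cell grows, and others form the preprophase band, spindle and phragmoplast of dividing cells. Plants carry several beta-tubulin genes with very similar proteins and different expression patterns. TUB1 transcript is known as abundant in roots and as lowered by light in seedlings, and TUB6 is expressed broadly.

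All arrays are on a common scale, with a 2%-trimmed mean of 100.01 in each and a highest signal between 2134 and 2814. Both genes were bright. TUB1 exceeded 87.7% and TUB6 88.3% of the 13648 probe sets tested in mean log2 signal. Control transcripts differed between groups. The 3′ to 5′ signal ratio of the older actin control lay between 3.84 and 5.22 in the 4 arrays of Ler background and between 1.90 and 2.35 in the other 4, while a newer actin control gave ratios from 1.16 to 1.5 over all 8. For the 25S rRNA control, signals were 39.6 and 69.7 in gibberellin-deficient seedlings and 62.4 and 108 in de-etiolated ones, while the 4 wild-type arrays lay between 22.2 and 32.0. The part of these controls in the differences below was not tested.

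TUB1 signal stood at 529 and 556 in the gibberellin-deficient mutant, higher than in all 6 other arrays. The Ws arrays gave 402 and 342, the de-etiolated arrays 331 and 360, and the Ler arrays 268 and 371. The mutant's arrays therefore did not overlap with those of any other group, while Ws, Ler and the de-etiolated mutant overlapped with one another. The choice of the gene favours the separation from Ler, and the share of all probe sets that separate in this way was not counted. The order of the group means was Ler (319 ± 72.6, SD, n = 2), the de-etiolated mutant (345 ± 20.2), Ws (372 ± 42.3) and the gibberellin-deficient mutant (543 ± 18.9), and the first 3 lay within their spread of each other. The highest array exceeded the lowest 2.07-fold.

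**Figure D1:**
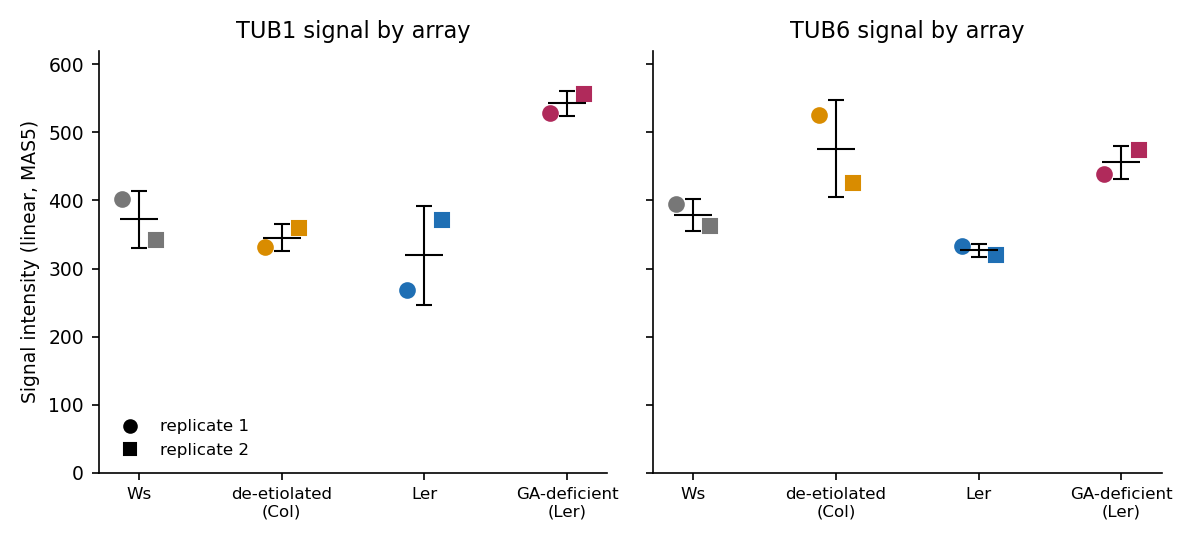
Signal intensity (linear scale) of TUB1, left, and TUB6, right, in each array, with circles for replicate 1 and squares for replicate 2, and with the group mean and SD (n = 2) in black. TUB1 is high in the gibberellin-deficient mutant only (529 and 556), and TUB6 is above 426 in all 4 mutant arrays and at or below 395 in all 4 wild-type arrays. Neither gene was called between the de-etiolated mutant and Ws.

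TUB6 signal was highest in the mutant arrays, but its difference between the de-etiolated mutant and Ws was not called (adjusted p = 0.27, limma). Gibberellin-deficient seedlings gave 439 and 474 and de-etiolated seedlings 526 and 426, against 395 and 362 in Ws and 334 and 320.2 in Ler. The lowest of the 4 mutant arrays lay above the highest of the 4 wild-type arrays, and Ws lay above Ler without overlap. The choice of the gene favours the separation of the gibberellin-deficient mutant from Ler. The share of all probe sets that separate in these ways was not counted. The order of the means was Ler (327 ± 9.51, SD, n = 2), Ws (378 ± 23.4), the gibberellin-deficient mutant (456.5 ± 24.2) and the de-etiolated mutant (476 ± 70.9), with both mutants overlapping. The highest array exceeded the lowest 1.64-fold, a narrower range than for TUB1.

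Setting the gibberellin-deficient mutant against Ler places it beside the wild type of its own background, and this is the comparison from which both genes were chosen. TUB1 was higher in the mutant by 0.78 on the log2 scale, or 1.71-fold, and TUB6 by 0.48, or 1.39-fold. In this comparison 4.55% of all probe sets tested were called higher (adjusted p under 0.05, limma), and the median difference over all of them was 0.01. A log2 difference of larger size than that of TUB1 was found in 7.92% of probe sets tested, and of larger size than that of TUB6 in 22.6%. The size for TUB1 depended on which Ler array was used. Replicate 1 of Ler had the lowest TUB1 signal of all arrays, 0.46 log2 units below replicate 2, and without it the difference was 0.55, against 1.01 without replicate 2. For TUB6 the Ler arrays differed by 0.06 log2 units, and leaving out any 1 array kept the difference between 0.42 and 0.53.

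Beside Ws, the other wild type, the gibberellin-deficient mutant had a TUB1 difference of 0.54 (1.46-fold) and a TUB6 difference of 0.27 (1.20-fold). Ws itself differed from Ler by 0.23 for TUB1 and by 0.21 for TUB6, as log2 differences. For TUB1 the difference between Ws and Ler was 0.00 without replicate 1 of Ler. These comparisons share arrays with the one behind the choice of the genes and are descriptions only.

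Comparing the de-etiolated mutant with Ws asked whether the genes differ in a second mutant. The log2 difference shares no array with the comparison behind the choice of the genes. Its SE, interval and p, however, use a spread estimated over all arrays. These include the gibberellin-deficient and Ler arrays, where choosing called genes favours a small spread. Neither gene passed the test, while 2.24% of all probe sets did. TUB1 had a log2 difference of -0.10 (SE 0.16, 95% interval -0.46 to 0.25, adjusted p = 0.81, limma), with overlapping arrays. TUB6 had a log2 difference of 0.32 (SE 0.14, 95% interval 0.02 to 0.63). Its p was 0.0397 in the limma fit before adjustment and 0.27 after adjustment over all probe sets tested. Both mutant arrays lay above both of Ws for TUB6, and the share of all probe sets that separate in this way was not counted. With only the 2 groups fitted, which leaves the gibberellin-deficient and Ler arrays out of the spread, the adjusted p of TUB6 was 0.38 (limma). The interval of TUB6 reaches from 1.01-fold to 1.54-fold higher in the mutant, and that of TUB1 from 0.727-fold to 1.19-fold. Without replicate 1 of the de-etiolated mutant, whose TUB6 signal of 526 was the highest of all arrays, the TUB6 difference was 0.17 (adjusted p = 0.66, limma).

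Against Ler, the log2 difference of the de-etiolated mutant was 0.53 for TUB6 and 0.13 for TUB1. That of TUB1 turned to -0.10 without replicate 1 of Ler, and that of TUB6 was 0.38 without replicate 1 of the de-etiolated mutant. Between both mutants, TUB1 was higher in the gibberellin-deficient one by 0.65 (1.57-fold), while TUB6 differed by -0.05.

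How alike the 2 genes were over the arrays depended on which arrays were used. Their log2 signals had a Pearson correlation of 0.45 and a Spearman correlation of 0.29 over the 8 arrays, which share groups of 2. Both genes were chosen for being higher in the gibberellin-deficient mutant than in Ler, which are 4 of these arrays, so the choice itself bears on this correlation and on ranks made from it. Without both arrays of the gibberellin-deficient mutant, the farthest from the median of TUB1, Pearson's r was 0.15. Without replicate 1 of the de-etiolated mutant and replicate 2 of Ler, the farthest from the median of TUB6, it was 0.91. Of 7338 other measured probe sets that name 1 gene, 22.4% followed TUB1 more closely than TUB6 did. The log2 signal of TUB1 minus that of TUB6 was 0.27 and 0.23 in gibberellin-deficient seedlings and -0.66 and -0.24 in de-etiolated seedlings, with -0.31 and 0.21 in Ler and 0.03 and -0.08 in Ws. Probe sets differ in sensitivity, so only the change of this value between arrays can be read. It was lower in both arrays of the de-etiolated mutant than in both of Ws and of the gibberellin-deficient mutant. How often a difference of 2 probe sets separates in this way was not counted.

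**Figure D2:**
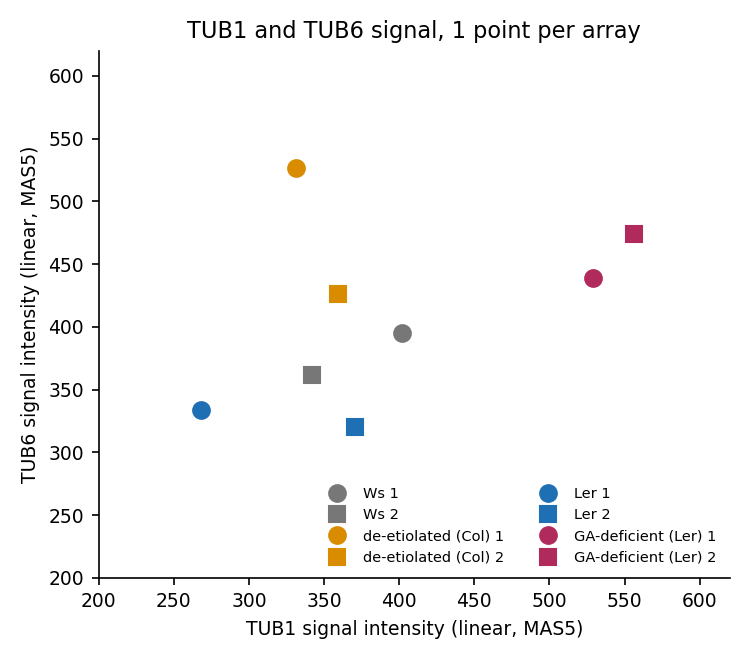
TUB6 signal intensity against TUB1 signal intensity (both linear, both axes starting at 200), with 1 point per array, colours for groups, circles for replicate 1 and squares for replicate 2. The gibberellin-deficient arrays lie high for both genes and the de-etiolated arrays for TUB6 only. Neither gene was called between the de-etiolated mutant and Ws. Pearson's r of the log2 values is 0.45 over the 8 arrays.

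The spread within groups was ordinary for TUB1 and small for TUB6. The residual SD of log2 signal was 0.19 for TUB1 and 0.12 for TUB6, against a median of 0.19 over all probe sets tested, and 51.2% and 21.9% of these had a smaller one. Among other tubulins named alone, TUB9 (0.119) and TUA6 (0.103) had a smaller SD than TUB6 (0.124), and TUB5, TUB7 and TUA1 a larger one. Choosing genes called between the gibberellin-deficient mutant and Ler favours a small spread in those arrays. For TUB6, replicate 2 minus replicate 1 was -0.06 log2 units in Ler and -0.30 in the de-etiolated mutant.

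Of the 7 other listed beta-tubulins, 3 were named alone by a probe set (TUB5, TUB7 and TUB9), and TUB2, TUB3, TUB4 and TUB8 were not analysed here. None of the 3 was called by limma between the gibberellin-deficient mutant and Ler, and none had an unadjusted p under 0.05, in a comparison in which 10.7% of all probe sets were called in either direction. TUB7 signal was 200.4 and 260 in this mutant, 136 and 212 in Ler, 225 and 185 in Ws, and 233 and 209.5 in de-etiolated seedlings. Its log2 difference between the gibberellin-deficient mutant and Ler was 0.42 (SE 0.21, adjusted p = 0.23, limma). As for TUB1, the lowest TUB7 array was replicate 1 of Ler. Without it the TUB7 difference was 0.10, and without replicate 2 of Ler it was 0.73, neither of them called. TUB5 signal ranged from 685 to 920 over all 8 arrays, and its log2 difference in this comparison was 0.00 (SE 0.15, adjusted p = 1.0, limma). Its 95% interval ran from -0.32 to 0.32.

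TUB9 had its highest mean in Ler. Its signal was 787 and 865 in Ler, 681 and 840.0 in gibberellin-deficient seedlings, 675 and 650.5 in Ws, and 581 in each array of the de-etiolated mutant. Both de-etiolated arrays lay below all others, and the share of all probe sets that separate in this way was not counted. TUB9 fell in the de-etiolated mutant against Ler, by 0.50 on the log2 scale (SE 0.13, adjusted p = 0.023, limma), in a comparison where 15.9% of probe sets were called. The call was lost without a mean-variance trend (adjusted p = 0.073, limma) and on leaving out either array of the de-etiolated mutant (0.0705 without replicate 1, 0.0654 without replicate 2) or replicate 2 of Ler (0.147). Its differences between the de-etiolated mutant and Ws (-0.19, adjusted p = 0.52, limma), between Ws and Ler (-0.31, adjusted p = 0.22, with 5.82% of all probe sets called) and between the gibberellin-deficient mutant and Ler (-0.12, adjusted p = 0.60) were not called.

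Of 6 listed alpha-tubulins, the partners of beta-tubulin in the dimer, TUA1 and TUA6 were named alone, and 1 further probe set reads TUA3 and TUA5 together. TUA1 is known as a pollen-expressed gene. Its signal was 149 and 147 in de-etiolated and 134 and 121 in gibberellin-deficient seedlings, against 103 and 109 in Ws and 118 and 90.3 in Ler. All 4 mutant arrays lay above all 4 wild-type arrays, as for TUB6, which was chosen on the gibberellin-deficient and Ler arrays. The share of all probe sets that separate in this way was not counted. The log2 difference of TUA1 was 0.47 between the de-etiolated mutant and Ws (adjusted p = 0.17, limma), 0.29 between the gibberellin-deficient mutant and Ler (0.30) and 0.50 between the de-etiolated mutant and Ler (0.061). The last of these passed without replicate 1 of Ler (0.0391).

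TUA6 was among the brightest probe sets, with signals of 2111 and 2085 in the gibberellin-deficient mutant and 1781 and 1672 in Ler. Its log2 difference there was 0.28 (adjusted p = 0.16, limma), and 0.16 after quantile normalization. It stood at 2266 and 1945 in Ws and at 1838 and 2067 in de-etiolated seedlings, which overlap. The probe set shared by TUA3 and TUA5 ranged from 1452 in the de-etiolated mutant to 1861 in the gibberellin-deficient mutant, with a log2 difference of 0.09 between the latter and Ler (adjusted p = 0.65, limma).

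**Figure D3:**
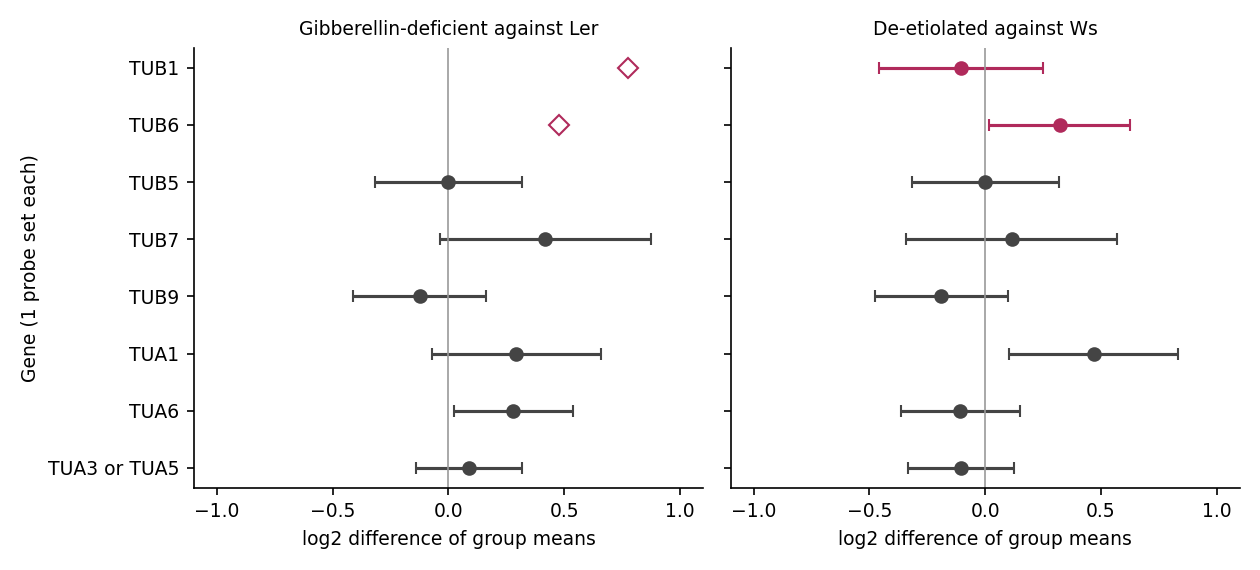
Log2 differences of group means for each tubulin probe set, between the gibberellin-deficient mutant and Ler (left) and between the de-etiolated mutant and Ws (right). Bars are unadjusted 95% intervals of the limma fit, and open diamonds without bars mark TUB1 (0.78) and TUB6 (0.48) in the comparison from which they were chosen. TUB1 and TUB6 were not called on the right, and the remaining tubulin probe sets were not called in either panel. Over all probe sets tested, 10.7% were called on the left and 2.24% on the right.

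Over the alpha- and beta-tubulins, folding cofactors and microtubule-associated proteins listed, 11 probe sets other than those of TUB1 and TUB6 could be tested. None was called by limma between the gibberellin-deficient mutant and Ler, and 1 had an unadjusted p under 0.05, where 10.7% and 25.8% of all probe sets did. Their median log2 difference there was 0.00 against 0.01 for all probe sets. None was called by limma between the de-etiolated mutant and Ws (median 0.14, against 0.02, with 1 unadjusted p under 0.05) or between Ws and Ler (0.01, against -0.02, with 3), where 2.24% and 5.82% of all probe sets were called and 16.9% and 18.1% had an unadjusted p under 0.05. TUB9 alone was called between the de-etiolated mutant and Ler (0.18, against 0.00), where 15.9% of all probe sets were. With 11 probe sets these counts do not set the list apart from the rest. The 4 microtubule-associated proteins measured of 30 listed were MAP65-6, which links microtubules, SPR1, which binds their growing ends and keeps organs from twisting, WDL3 of the wave-dampened family and TON1B, needed for the preprophase band. Between the gibberellin-deficient mutant and Ler their log2 differences were 0.08, 0.00, -0.37 and -0.28. SPR1, the brightest of them, had signals of 624 and 741 in the mutant and 716 and 651 in Ler. The folding cofactors measured, 2 of 5, were TFCC (0.14) and TFCE (-0.47), which help to assemble tubulin dimers. Neither of the 2 listed gamma-tubulins, which start new microtubules, was named by a probe set.

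Other parts of the growth machinery were thinly covered. COB, an anchored wall protein that orients cellulose deposition, was the 1 gene measured of 13 for cellulose synthesis. Its signal was 818 and 955 in the gibberellin-deficient mutant and 715 and 792 in Ler, a log2 difference of 0.23 (adjusted p = 0.30, limma). Of 8 listed actins, ACT11 could be tested, at 190.4 and 204 in the gibberellin-deficient mutant and 143 and 156 in Ler, a log2 difference of 0.39 (adjusted p = 0.17, limma). ACT11 was lower in Ws (69.1 and 55.8) and in de-etiolated seedlings (62.8 and 72.5) than in Ler, with log2 differences of -1.23 and -1.11 (adjusted p = 0.0011 in each, limma). Of 8 kinesins and myosins, motor proteins of the cytoskeleton, 4 could be tested and none was called by limma in any of the 4 comparisons. Unadjusted p under 0.05 was reached by 1 of them between the de-etiolated mutant and Ws and by 1 between the de-etiolated mutant and Ler, where 16.9% and 29.9% of all probe sets reached it. Since 2.24% to 15.9% of all probe sets were called in the 4 comparisons, a count of 0 of 4 does not set these genes apart.

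Organ markers were also few. Of 12 root markers, EXPA7 and EXPA18, expansins of root hairs, were measured, with a summed signal of 426 and 357 in gibberellin-deficient seedlings, 333 and 332 in Ler, 383 and 271 in Ws, and 277 and 331 in de-etiolated seedlings. Of 10 leaf markers, RCA, the activator of the carbon-fixing enzyme Rubisco, was measured, at 1255 and 1158 in the gibberellin-deficient mutant and 961 and 913 in Ler. RCA stood at 1167 and 946 in Ws and at 473 and 1061 in de-etiolated seedlings. EXPA18 and RCA had higher signals in both arrays of the gibberellin-deficient mutant than in both of Ler, with log2 differences of 0.36 each, while EXPA7 had a difference of -0.21, with signals of 99.2 and 59.5 in the mutant and 101 and 79.1 in Ler. EXPA18 stood at 327 and 297 in the mutant and at 232 and 253 in Ler. None of the 3 markers was called there (adjusted p = 0.27 to 0.61, limma). The share of all probe sets that separate as EXPA18 and RCA did was not counted. None of the 10 listed markers of dividing cells was named alone by a probe set. The part of organ proportions in the tubulin differences was not tested.

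The genes next to TUB1 and TUB6 on their chromosomes were also read. Among the 5 nearest measured genes on each side, in the order that assembly TAIR10.1 gives, none of 10 around TUB1 and none of 10 around TUB6 was called by limma between the gibberellin-deficient mutant and Ler, and 2 around each had an unadjusted p under 0.05. Over all probe sets 10.7% were called there and 25.8% had an unadjusted p under 0.05, so with 10 genes these counts do not set the neighbours apart. Around TUB1 their log2 differences ran from -0.82 to 0.44 (median 0.10), and around TUB6 from -0.71 to 0.45 (median -0.02). TUB1 and TUB6 were chosen on this comparison and the neighbours were not, so their values are not compared.

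**Figure D4:**
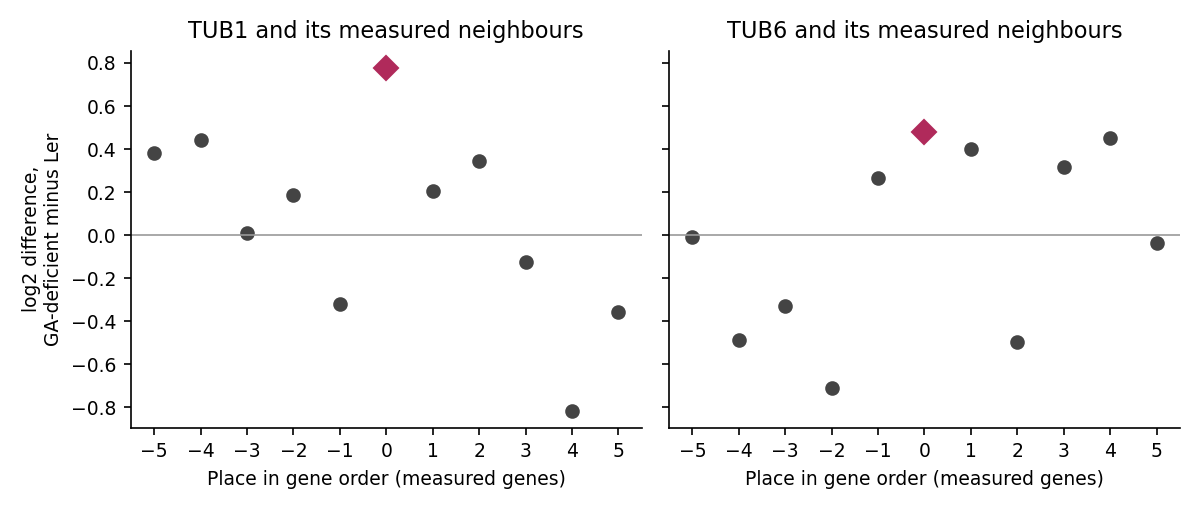
Log2 difference between the gibberellin-deficient mutant and Ler for the 5 nearest measured genes on each side of TUB1 (left) and of TUB6 (right), in gene order. Diamonds mark TUB1 (0.78) and TUB6 (0.48), which were chosen on this comparison, and circles mark the neighbours, which lie between -0.82 and 0.45 and on both sides of 0.

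The probe sets whose log2 signal followed TUB1 most closely over the 8 arrays were, among genes with a symbol, JAL34 (Pearson's r = 0.97), SCN1 (0.95), sks15 (0.95), CPI1 (0.92) and MYC3 (0.92). JAL34 is a jacalin-related lectin, SCN1 restrains where root hairs start, sks15 belongs to the SKU5-like proteins, CPI1 acts in sterol synthesis and MYC3 is a transcription factor of jasmonate responses. JAL34 signal was 1954 and 2049 in the gibberellin-deficient mutant and 1270.0 and 1518 in Ler. That of SCN1 was 285 and 308 in the mutant and 186 and 219 in Ler. Among genes known by locus tag only, AT5G47530 (0.97), AT3G56820 (0.97), AT4G28100 (0.96), AT3G52360 (0.95) and AT5G14450 (0.95) were closest. AT5G14450 had signals of 213 and 181 in the mutant and 56.3 and 76.3 in Ler. In each of these 10 both arrays of the mutant were the highest of all 8, and in each replicate 1 of Ler was the lowest. TUB1 has the same extremes, and the 10 were picked for following it over these arrays, so this is largely set by the picking.

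TUB6 was followed most closely by DRT100 (0.96), TMT2 (0.96), AKINBETA1 (0.96), WLIM2b (0.94) and ALDH10A8 (0.94). WLIM2b is an actin-bundling protein, TMT2 a vacuolar sugar transporter and AKINBETA1 a subunit of the energy-sensing kinase SnRK1. WLIM2b signal was 876 and 811 in gibberellin-deficient seedlings, 910 and 685 in de-etiolated ones, 671 and 628 in Ws and 593 and 536.5 in Ler. AKINBETA1 stood at 117 and 127 in gibberellin-deficient and at 158 and 124 in de-etiolated seedlings, and the 4 wild-type arrays lay between 66.8 and 80.6. By locus tag, AT5G12900 (0.98), AT1G26270 (0.97), AT4G22250 (0.97), AT1G73120 (0.96) and AT3G01400 (0.96) were closest. With 8 arrays in 4 groups of 2 and 7338 probe sets compared, correlations of this size are a description of these arrays. No gene was named here for both TUB1 and TUB6, and with so few taken of 7338 this does not set the 2 genes apart.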

How the data were processed

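The deposited table gives a signal intensity for every probe set in each array. The authors used MAS5, per the submitters' processing notes. Its settings are not given in the sources used here. Columns were matched to samples by identifier.

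Of 22810 probe sets, 64 are array controls, 13513 name 1 gene, 503 several and 8730 none. Intensities were log2-transformed after adding 2.96, which is 10% of the median over gene-naming probe sets, so folds of dim genes are understated. Controls and the dimmest 40% of probe sets were dropped, which kept TUB1 and TUB6 and left 13648. One limma model covered the 4 groups, with a mean-variance trend in eBayes and 4 residual degrees of freedom. Two-sided p-values were adjusted by Benjamini-Hochberg over all probe sets of a comparison, and those under 0.05 were called. Separate cultures are not stated for the 2 arrays of a group, so p-values reflect only the spread between these samples, which may be technical, and the number of arrays limits the precision.

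The members and lists were chosen with earlier results of these data known, and the kinesins and myosins were added after the annotation was read. Of 105 genes in the other lists, 19 were named alone, as were the 8 kinesins and myosins. Named were all tubulins, called members of the lists, and the 5 genes with a symbol and 5 without whose log2 signal correlated best with TUB1 or TUB6. Further list members and the neighbours were named after their values were seen. Gene names and order came from the array's annotation and RefSeq's gene table (TAIR10.1).

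On simulated data for 13648 probe sets, 74 of 100 probe sets changed 2-fold and 89 of 100 changed 4-fold were recovered for the de-etiolated mutant against Ws, with 11 false calls. For the gibberellin-deficient mutant against Ler, 67 and 93 of 100 were recovered, with 12 false calls. Changes of less than 2-fold, such as those of the tubulins here, were not simulated. Fits used limma 3.58.1 (R 4.3.3), and tables were made in Python 3.11.15.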

Additional observations from a re-analysis of the deposited data

How the results depend on the processing

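The alternatives were quantile normalization, pseudocounts of 1% and 50% of the median, no filter, leaving out the lowest 60%, no mean-variance trend, only the 2 groups compared, a replicate block, no cross-hybridising probe sets, and leaving out each array. Between the de-etiolated mutant and Ws, neither TUB1 (adjusted p = 0.74 to 0.99, limma) nor TUB6 (0.14 to 0.66) passed under any of them. Leaving out single arrays gave log2 differences of -0.22 to 0.01 for TUB1 and 0.17 to 0.47 for TUB6 there. For TUB1 it gave 0.55 to 1.01 between the gibberellin-deficient mutant and Ler, 0.0014 to 0.46 between Ws and Ler, and -0.10 to 0.36 between the de-etiolated mutant and Ler, where TUB6 ranged from 0.38 to 0.68. The lowest TUB1 values in these comparisons with Ler came without replicate 1 of Ler, and the lower TUB6 value without replicate 1 of the de-etiolated mutant. The other settings moved no TUB1 or TUB6 value past its SD within groups.

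The count of 306 probe sets between the de-etiolated mutant and Ws was 135 without the filter, 115 without the trend and 162 with only the 2 groups compared. The cause was not tested. Leaving out single arrays leaves 1 array in a group, not always a group compared, and why the counts then changed was not tested. It gave 77 to 367 there, against 440 to 1606 for the gibberellin-deficient mutant and Ler, 340 to 843 for Ws and Ler, and 937 to 2057 for the de-etiolated mutant and Ler. Over 340 values of other tubulins, 335 stayed on their side of the threshold, 4 (TUB9) lost and 1 (TUA1) gained a call.

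The labels share the letters A and B between groups but do not say that they mark a shared batch. Deviations of same-lettered arrays correlated by -0.03 to 0.14 between groups. With the replicate block, 430 probe sets were called between the de-etiolated mutant and Ws, 1579 between the gibberellin-deficient mutant and Ler, 882 between Ws and Ler and 2310 between the de-etiolated mutant and Ler, and TUB6 had an adjusted p of 0.25 in the first (limma).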
